A study of Mus musculus with 45 samples.

Results

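The label content of RNA at the end of a 20 h exposure to 4-thiouridine (4sU) was described gene by gene in primary mouse cortical cells from 3 stages of embryonic development, E11.5, E14.5 and, last, E16.5. 4sU is a uridine analog that cells build into RNA while they transcribe it, and after alkylation it is read as a T-to-C change, so that the fraction of covered T bases read as C (the conversion rate) measures how much of a gene's RNA carries label. Each gene's conversion rate at 0 h of chase was divided by the median gene rate of its library. This quotient is called relative label, and a gene at 1 carried as much label as the median gene of that library. Genes with over 2000 covered Ts in each of the 9 libraries at 0 h were kept, which gave 10021 of 53491 genes and between 96.6% and 97.5% of the reads of each library. Of these genes, 9141 were annotated as protein-coding and 699 as pseudogenes.

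All cells came from wild-type embryos. Each of 3 biological replicates per stage (A, B and C) was a pool of dissociated cortices, taken from 7 embryos at the first stage and from 2 at each later one, that was plated in neural progenitor medium with bFGF and labelled with 100 uM 4sU for 20 h. The label was then chased with 5 mM uridine for 0, 2, 4, 8 or 12 h, and the wells of one replicate letter within a stage come from one pool. The values therefore describe cells after a day in culture, in bulk, where fewer cells of a type and less RNA per cell cannot be told apart. The p-values below measure the spread between 3 pools per stage.

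RNA that is destroyed quickly is replaced within a long labelling period, so that nearly all of its copies are new and carry label. RNA that is destroyed slowly, or that is no longer transcribed, keeps a large share of copies made before labelling began, and its label content is low. In the developing cortex radial glia divide and give rise to intermediate progenitors and neurons, so that cell cycle genes are switched off, and neuronal genes switched on, as cells leave the cycle.

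The libraries held 19.1 to 43.0 M reads in the tables. The median gene rate was 1.09%, 1.01% and 1.44% in the 3 E11.5 libraries (mean 1.18% ± 0.228, SD, n = 3), 1.11%, 1.20% and 1.04% at E14.5 (1.12% ± 0.0842, SD, n = 3) and 1.77%, 1.87% and 1.86% at E16.5 (1.84% ± 0.0542, SD, n = 3). The 3 E16.5 libraries lay above all others. The E16.5 median was 0.718 points above that of E14.5 and 0.652 points above that of E11.5 (exact two-sided permutation test, p = 0.1 for each, which is the smallest p that 3 against 3 allows), while E14.5 and E11.5 overlapped (difference of -0.0659 points, exact p = 0.9). Relative label removes this difference in scale and says nothing about absolute label. In the same cultures after 12 h of chase, the gene at the lowest 1st percentile had a rate of 0.0710% to 0.118%, which was taken as the background of unlabelled RNA. The spread between replicates was close to counting error: the median SD of log2 relative label was 0.1, 0.0897 and 0.0694 at the 3 stages, against 0.109, 0.0889 and 0.0749 from counting of converted Ts.

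**Figure D1:**
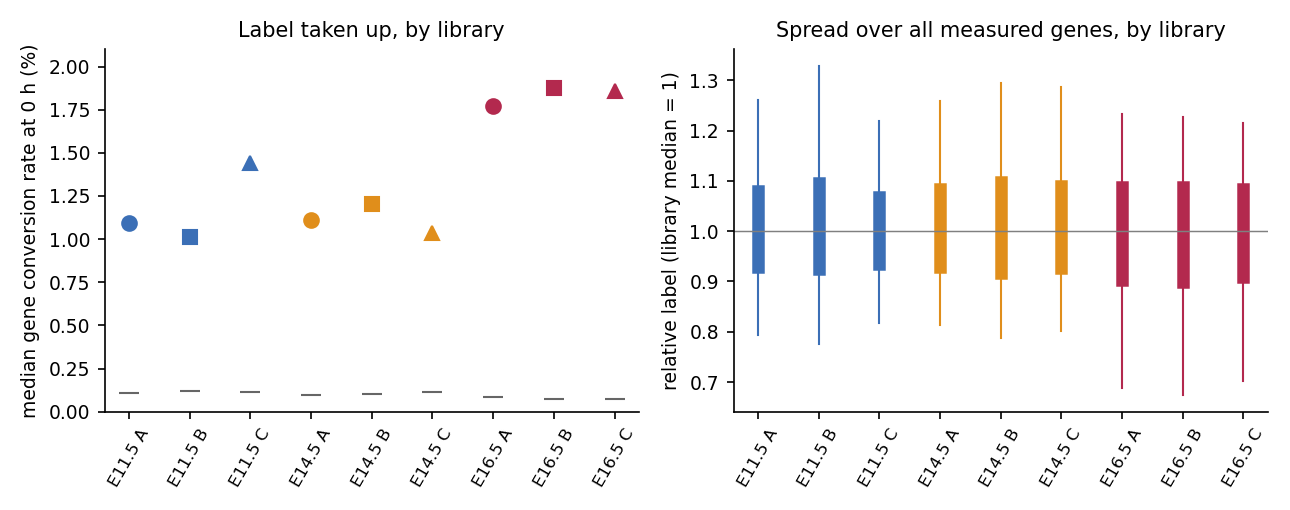
Left, median gene conversion rate in percent for each library at 0 h (points, coloured by stage), with the 12 h background as grey dashes. Right, relative label over the 10021 genes in each library, as the range from the 25th to the 75th percentile (thick bars) and from the 5th to the 95th (thin lines). The 3 E16.5 libraries sit between 1.77% and 1.87%, and their thin lines reach lower than those of the earlier stages.

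The genes with the least label included globins, an 18S ribosomal RNA-related transcript and a few neuronal and patterning genes. The neuronal and patterning genes named below were lowest at E16.5. Of the 18 genes in the lowest 5% of all 9 libraries, only 5 were protein-coding, and the rule for naming the lowest genes left out pseudogenes. Hbb-bs (adult beta-globin, chr7:103826534-103828096) had a relative label of 0.289, 0.373 and 0.136 at E11.5, of 0.0926, 0.0539 and 0.132 at E14.5, and of 0.0361, 0.0390 and 0.0347 at E16.5. At E16.5 its conversion rates of 0.0617% to 0.0720% were under the 12 h background of the same replicate, so that no label was detectable there. Hba-a1 (alpha-globin, chr11:32283511-32284465) went from 0.512, 0.642 and 0.305 at E11.5 to 0.0818, 0.0785 and 0.0376 at E16.5, a log2 change of -2.90 ± 0.50 (SE; limma, adjusted p = 0.0037) without overlap between the stages. Its rank was near the bottom at both stages, and the fit on ranks did not call it (adjusted p = 0.056). Hbb-bt, the other adult beta-globin gene, scattered from 0.491 to 1.33 at E11.5 and lay at 0.0736, 0.106 and 0.125 at E16.5 (adjusted p = 0.039, and 0.30 on ranks). Globin genes resemble each other closely, so how reads were split between them is uncertain. Red blood cells of the embryo lose or shut down their nucleus as they mature and carry globin RNA made earlier. The summed cpm (read counts scaled to a common library total) of 15 erythroid marker genes was 1816 to 3945 at E11.5, then 102 to 160 and, at E16.5, 109 to 229, and their pooled relative label was 0.516 ± 0.107, 0.197 ± 0.0914 and 0.173 ± 0.0540 (SD, n = 3).

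Gm42418, a transcript that RefSeq lists as Rn18s-rs5, an 18S ribosomal RNA-related sequence (chr17:39846958-39848788), had a relative label of 0.442, 0.447 and 0.488 at E11.5 and of 0.315, 0.289 and 0.289 at E16.5. Its label fell by 0.62 ± 0.09 on the log2 scale (adjusted p = 0.0016, and 0.65 on ranks) and its level was 5975 cpm at E11.5, 2651 cpm at the next stage and 1749 cpm at E16.5. It was chosen after its values were seen, and its exons overlap those of other genes on the opposite strand. Lars2 (mitochondrial leucyl-tRNA synthetase, chr9:123366927-123462666) was at 0.462, 0.465 and 0.455 at E11.5, 0.413, 0.399 and 0.394 at E14.5, and 0.369, 0.346 and 0.334 at E16.5, and the 3 stages did not overlap. Gm15564, an antisense transcript on chr16:35966752-35983230, stayed at 0.0998 to 0.178 in all 9 libraries. The rate at 12 h of chase was 74.4% to 78.1% of that at 2 h for Lars2, 77.5% to 88.8% for Gm42418 and 56.2% to 106% for Gm15564. The median over all genes was 15.6% at E16.5 and 25.3% at E11.5. These shares were not corrected for the 12 h background of 0.0710% to 0.118%. That background weighs most on Gm15564, the lowest of these 3 transcripts, whose share cannot be read as the speed at which label left.

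Reln and Ndnf, genes of the earliest cortical neurons, were low on average over the stages, and lowest at the last stage. Reln encodes Reelin, the secreted protein of Cajal-Retzius cells that guides migrating neurons (chr5:21884454-22344702). Its relative label was 0.762, 0.656 and 0.727 at E11.5, 0.510, 0.542 and 0.583 at E14.5, and 0.427, 0.432 and 0.373 at E16.5. The stages did not overlap, and E16.5 lay -0.80 ± 0.09 below E11.5 on the log2 scale (adjusted p = 0.00044) while the expression of the gene was higher by 1.50 (edgeR, adjusted p = 3.68e-05). Reln shares exon positions with another annotated gene, was chosen after its values were seen, and its value is uncertain to that extent. Ndnf, a secreted neurotrophic factor also made by Cajal-Retzius cells (chr6:65671590-65712326), went from 1.08, 0.856 and 1.02 to 0.778, 0.675 and 0.752 and then to 0.411, 0.405 and 0.381. The fall from E11.5 to E16.5 was -1.30 ± 0.09 (adjusted p = 6.46e-05), and here too expression rose, by 1.45 (adjusted p = 1.57e-06). Dmrta2, a transcription factor of the cortical hem and progenitors (chr4:109978053-109983687), was at 0.771 to 0.878 in the 6 earlier libraries and at 0.439, 0.440 and 0.511 at E16.5, with expression lower by 2.17 (adjusted p = 7.88e-10).

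The genes with the most label included mt-Co2 and several genes with many near-identical copies. mt-Co2, the mitochondrial gene of cytochrome oxidase subunit 2 (chrM:7013-7696), had a relative label of 3.70 to 4.44 in all 9 libraries, and its replicates and stages overlapped. Its level was only 16.1 to 30.3 cpm, whereas mt-Co1, from the same mitochondrial strand, was at 1655 to 2752 cpm with a relative label of 0.666 to 0.899. mt-Cytb and mt-Nd5 were close to mt-Co1, with relative labels of 0.739 to 0.920 and 0.716 to 0.838. Actg1, a cytoplasmic actin with a relative label of 3.50 to 4.43 and a mean of only 5.09 to 7.35 cpm, was chosen after its values were seen. The handling of reads that match several copies is not given in the sources used here, and both genes have near-identical copies in the genome, so their values are uncertain.

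Ppp1cc (a catalytic subunit of protein phosphatase 1) ranged from 1.48 to 2.53, Gm12355 from 1.53 to 2.21, Zbtb40 from 1.28 to 2.05, Suclg1 (succinyl-CoA ligase) from 1.28 to 2.24 and Tuba1c (an alpha-tubulin) from 1.48 to 2.19. Tuba1c was the one of these that changed with stage: 1.52, 1.48 and 1.49 at E11.5 and 1.48, 1.72 and 1.55 at E14.5 gave way to 2.08, 2.19 and 2.06 at E16.5 (0.50 ± 0.07 on the log2 scale against E11.5, adjusted p = 0.0016). Tubulin genes share long stretches of sequence, so this value is uncertain as well. Zfp619, a zinc finger gene (chr7:39517766-39540420), was at 1.33 to 1.82 in all 9 libraries and still had 91.7%, 74.5% and 56.3% of its 2 h rate after 12 h of chase at the 3 stages.

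**Figure D2:**
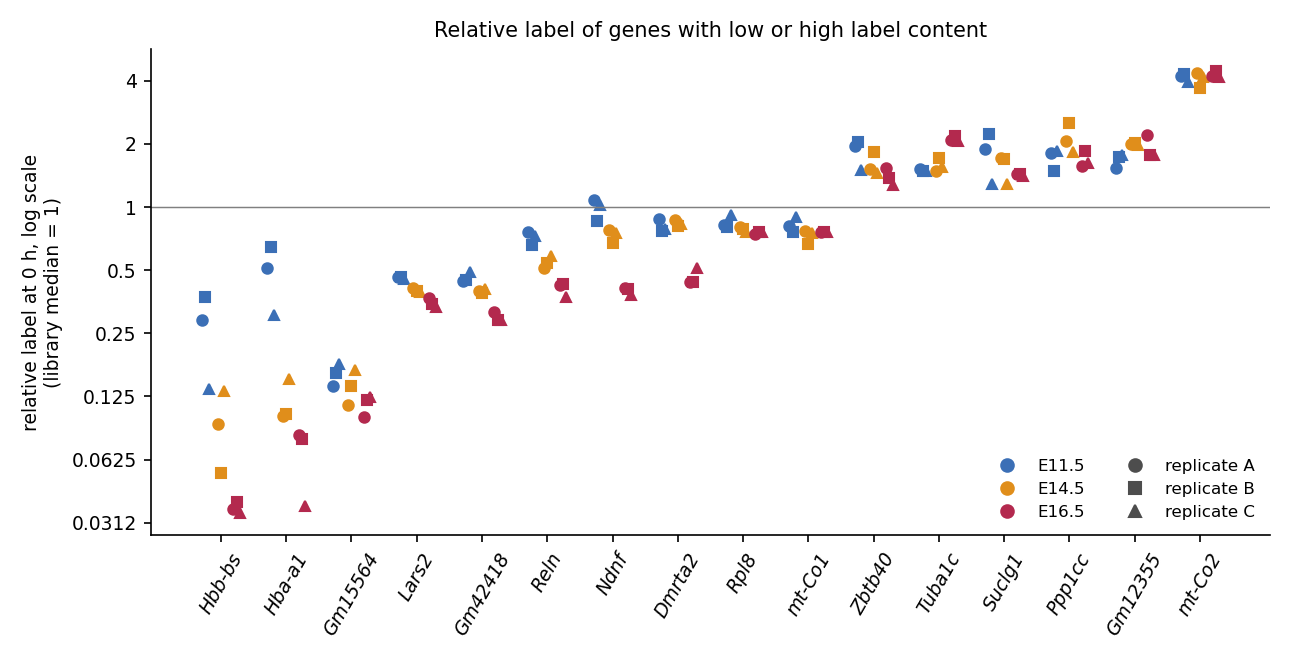
Relative label at 0 h (log scale, library median = 1) of 16 genes with low or high label content, 1 point per library, coloured by stage and shaped by replicate. Hbb-bs lies between 0.0347 and 0.373, Ndnf and Reln step down from E11.5 to E16.5, and mt-Co2 lies between 3.70 and 4.44 at all stages.

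The 501 genes with the lowest and the 501 with the highest relative label, averaged over the 3 stages, were compared as classes. Since the 0 h label chose them, only other properties are given. The lower class ended with Cdk4 (0.850) and the next gene outside it, Gm8508, was also at 0.850, whereas the upper class ended with Kcnh2 (1.152) and the next gene outside, Mcfd2, was also at 1.152, so that both edges cut through a continuous range. Protein-coding genes of the low-label class had short 3′ untranslated regions (median of 425 nt, against 1388 nt in the high-label class and 1131 nt in all genes), short coding sequences (975 nt, against 1488 and 1470 nt) and a median of 7 exons, against 8 in the high-label class and 10 in all genes. T bases made up 21.8% of their transcripts, 25% in the high-label class and 24.4% in all. The AU-rich motif TATTTAT was found in 12.9%, 31.5% and 30.5% of the 3′ untranslated regions, but per kb its frequency was nearly the same, at 0.287, 0.286 and 0.291. Pseudogenes were 25.1% of the low-label class and 19.6% of the high-label class against 6.98% of all genes, and values of genes with close copies are uncertain in both classes. Median levels were 36.9, 19.2 and 46.4 cpm, so the high-label class was also measured on fewer Ts (median of 8778 against 14475 and 21188).

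The libraries at 12 and 2 h of chase, none of which chose the classes, gave the share of the rate that was left. These shares were not corrected for the 12 h background of 0.0710% to 0.118%. The speed at which label left cannot be read from them. In the low-label class the median rate at 12 h was 28.6% ± 4.88, 29.5% ± 3.01 and 21.5% ± 0.681 of the 2 h rate (SD, n = 3), in order of stage. Over all genes it was 25.1% ± 4.51, 24.8% ± 2.28 and 15.4% ± 0.313. In the high-label class, more of the label remained at each stage, with 37.9% ± 5.80, 38.1% ± 4.50 and 26.2% ± 0.676. The order of the classes, with the high-label class above the low-label class and both above all genes, held in each of the 9 replicates. The gap between the classes was smaller among genes with over 10000 covered Ts. There, over the stages, 27.6% was left in the low-label class and 29.94% in the high-label class. In the main setting these values were 26.56% and 34.07%. At 2 h the median relative label was 0.872 to 0.984 in the low-label class and 1.13 to 1.22 in the high-label class, and at 12 h these medians were 1.08 to 1.25 and 1.73 to 2.01.

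**Figure D3:**
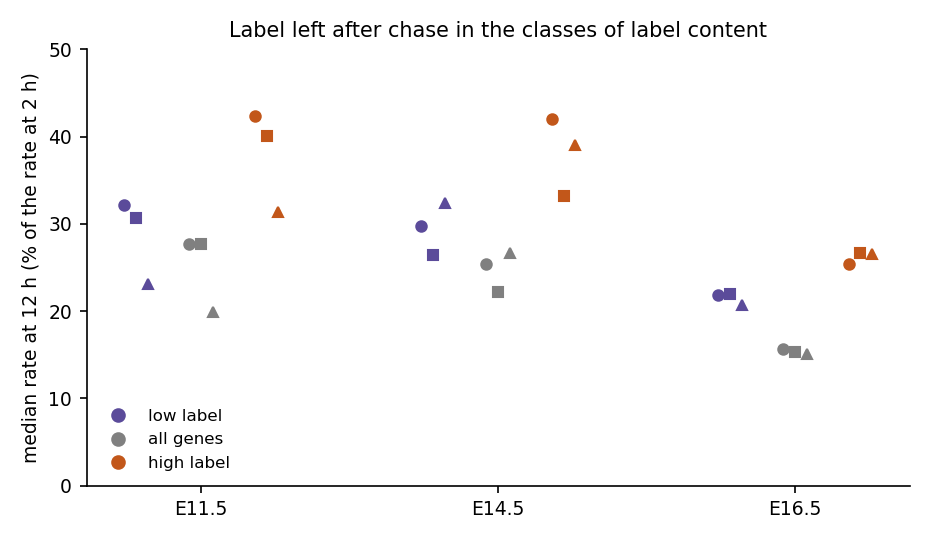
Median conversion rate at 12 h of chase as a percentage of that at 2 h, for the low-label class, all genes and the high-label class, 1 point per replicate at each stage. The high-label class lies above the low-label class in each replicate, with means of 37.9%, 38.1% and 26.2% in order of stage.

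Few genes kept an extreme rank throughout. Only 18 genes, 5 of them protein-coding, were in the lowest 5% of all 9 libraries, and 30 genes, 13 of them protein-coding, were in the highest 5% of all 9. By stage means, E11.5 and E14.5 shared 206 of the 501 lowest genes (41.1% of each list) and 229 of the 501 highest. E11.5 and E16.5 shared 54 of the lowest and 160 of the highest, and E14.5 and E16.5 shared 52 and 143. Across the 10021 genes, which are not independent replicates, the Spearman correlation of relative label between replicates was 0.396 to 0.471 at E11.5, 0.522 to 0.607 at E14.5 and 0.718 to 0.772 at E16.5. Between stages it was 0.594 for the means of E11.5 and E14.5, 0.160 for E11.5 and E16.5 and 0.156 for E14.5 and E16.5. Among the 923 genes with over 50000 covered Ts in all 9 libraries, where counting error is smaller, these 3 values were 0.790, 0.303 and 0.321, and replicates correlated at 0.596 to 0.921. The correlation between the first and second stage was thus above both correlations with E16.5.

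Relative label was then tested gene by gene. Between E11.5 and E14.5, 26 genes rose (0.259% of 10021 tested) and 9 fell (0.0898%), with 1363 genes at an unadjusted p under 0.05. From E14.5 to E16.5, 793 genes rose (7.91%) and 1364 fell (13.6%), and from E11.5 to E16.5, 819 rose (8.17%) and 1252 fell (12.5%). These comparisons share libraries, so they are not independent of each other. Fewer rises were called when a single library of the stages compared was left out, which also lowers the number of replicates. From E14.5 to E16.5 they numbered 504 and 437 without E14.5 replicates A or B, and 437, 349 and 412 without E16.5 replicates A, B or C. From E11.5 to E16.5 they numbered 527, 466 and 518 without those 3 E16.5 libraries, and from E11.5 to E14.5 from 5 to 25 when single libraries were left out. The 9 falls from E11.5 to E14.5 numbered 0 to 3 without any one library other than E11.5 replicate C (13 without it) and 0 with the replicate letter as a block. The median log2 change of called genes from E14.5 to E16.5 was 0.28 for rises and -0.52 for falls, with 35 rises and 704 falls beyond 0.5. From E11.5 to E16.5 it was 0.33 and -0.48, with 146 and 595 beyond 0.5, and from E11.5 to E14.5 it was 0.60 and -0.41, with 17 and 2.

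Genes of DNA replication and mitosis lost relative label together at E16.5. Of 42 such genes on the list, 42 fell from E11.5 to E16.5 and 41 fell from E14.5 to E16.5, with medians of -0.84 and -1.02 on the log2 scale beside -0.01 and 0.00459 over all genes. Their median relative label was 1.02, 1.03 and 1.09 in the E11.5 libraries, 1.15, 1.19 and 1.09 at E14.5, and 0.568, 0.561 and 0.620 at E16.5. The divisor, the median gene rate, averaged 1.84% at E16.5, against 1.18% at E11.5 and 1.12% at E14.5. A lower relative label, here and in the lists below, is thus a fall against the median gene. It need not be a lower conversion rate. None of the 42 was among the lowest 5% of genes at E11.5 or E14.5, whereas 33 were at E16.5. 8 were among the highest 5% at E14.5. Between E11.5 and E14.5, limma called 0 members after adjustment, 8 had a positive change at an unadjusted p under 0.05, and edgeR on converted Ts called 1. The list was written with earlier results of these data known, so its direction is a description.

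Among its members, Top2a (DNA topoisomerase 2-alpha, which untangles replicated chromosomes, chr11:98992943-99024189) was at 1.12, 1.09 and 1.09 at E11.5, 1.20, 1.21 and 1.12 at E14.5, and 0.516, 0.517 and 0.513 at E16.5. All 3 late libraries lay at less than the lowest of the 6 earlier ones, with a change of -1.09 ± 0.05 from E11.5 (adjusted p = 2.84e-05). Cdk1, the kinase that drives entry into mitosis (chr10:69335146-69352938), was at 1.12, 1.14 and 1.11, then 1.19, 1.20 and 1.23, then 0.465, 0.469 and 0.592. Mki67, the proliferation marker Ki-67 (chr7:135689784-135716361), was at 1.08, 1.13 and 1.12, then 1.20, 1.30 and 1.22, then 0.510, 0.538 and 0.565. Members differed in size of change: the replicative helicase subunits Mcm6 and Mcm7 fell by 0.38 and 0.31 and the sliding clamp Pcna by 0.28, the centromere motor Cenpe by 1.18, the checkpoint kinase Bub1 by 1.15 and the polo-like kinase Plk1 by 1.11. These 6 were chosen after their values were seen. Rrm2, the regulatory subunit of ribonucleotide reductase (chr12:24708241-24714146), was between them, from 1.03, 1.04 and 1.08 to 0.598, 0.624 and 0.606. Expression of all 42 genes fell from E11.5 to E16.5 by more than 2-fold, with a median log2 change of -1.49.

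Promoters are shown because these genes moved together. The cell cycle genes homology region (CHR) is a short element, TTTGAA, found in many promoters of late cell cycle genes, and CCAAT is the box bound by NF-Y. Windows from 250 bases before to 50 after each start in RefSeq on GRCm38.p6 were searched on both strands. TTTGAA stood in 44.4% of 36 windows of the 34 listed genes that had one, against 17.9% of all 32851 windows and 11.4% of windows of genes with a relative label. CCAAT was in 77.8%, 37.4% and 38.2%, and both were in 41.7%, 6.95% and 4.67%. Among genes whose label fell from E11.5 to E16.5, 16% of windows held TTTGAA and 10.1% held both, and among those whose label rose 10.1% and 3.08%, respectively. A match is only a string of letters, not a bound site. Genes of a single chromosome were left out of the choice of sequences to show. For the 6 other listed genes with both motifs that fell furthest, 30 bases around the match are given, 5′ to 3′ on the strand that carries it, with TTTGAA in capitals and coordinates on GRCm38.p6.
Cdk1 (chr10:69352910-69352939, minus strand): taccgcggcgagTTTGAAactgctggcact
Plk1 (chr7:122159453-122159482, plus strand): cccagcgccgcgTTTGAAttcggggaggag
Top2a (chr11:99024195-99024224, plus strand): tccctagtttcaTTTGAAcctttatctagc
Bub1b (chr2:118598231-118598260, plus strand): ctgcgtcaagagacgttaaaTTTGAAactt
Ube2c (chr2:164769888-164769917, minus strand): ccgccgcccgcgTTTGAAttgcaaccctcc
Mki67 (chr7:135716460-135716489, minus strand): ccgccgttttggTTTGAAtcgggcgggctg

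Genes enriched in cortical progenitors also fell in relative label at E16.5, where the divisor averaged 1.84%, against 1.18% at E11.5 and 1.12% at E14.5. Their conversion rates need not have fallen. The 56 genes, which the study took from published single-cell data, had a median relative label of 0.989, 0.994 and 1.00 in the E11.5 libraries, 1.07, 1.10 and 1.03 at E14.5, and 0.719, 0.733 and 0.759 at E16.5. From E11.5 to E16.5, 36 fell and 1 rose, with a median of -0.47, beside 12.5% falls and 8.17% rises over all genes. From E14.5 to E16.5, 36 fell, beside 13.6%. At E16.5, 26 of the 56 were in the lowest 5%. The list includes cell cycle genes such as Ccna2, Ccnb1 and Birc5, but regulators of progenitor identity fell too. Hes5, a Notch target that holds cells as radial glia, was at 1.08, 1.11 and 1.11 at E11.5 and at 0.530, 0.466 and 0.600 at E16.5 (-1.06 ± 0.10, adjusted p = 0.00017). Pax6, a transcription factor of radial glia that is not on this list, went from 1.01, 0.865 and 0.996 through 1.18, 1.23 and 1.15 to 0.650, 0.562 and 0.569. Sox2, which maintains neural stem cells, was at 0.942 to 0.984 at E11.5 and 0.676 to 0.692 at E16.5, and Eomes, the marker of intermediate progenitors, at 0.889 to 0.970 and 0.515 to 0.647. Ccnd2 (cyclin D2) was at 1.03, 0.996 and 1.03 and then at 0.561, 0.560 and 0.608 (-0.82 ± 0.05, adjusted p = 4.39e-05). The one gene that rose was Sox11, a factor of newborn neurons, by 0.21 (adjusted p = 0.021), and Sox4, Nfia and Nfib differed by 0.04 or less on the log2 scale without passing the test.

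Neuronal genes moved the opposite way. Of the 56 measured genes of the neuron list, also taken by the study from published single-cell data, 40 rose and 0 fell from E11.5 to E16.5 (median of 0.33), and 45 rose and 0 fell from E14.5 to E16.5 (median of 0.28). No member fell in either comparison at an unadjusted p under 0.05 or by edgeR on converted Ts (0 in each), beside 12.5% and 13.6% falls by limma over all genes. The median relative label of the list was 0.865, 0.852 and 0.880 at E11.5, 0.881, 0.843 and 0.897 at E14.5, and 1.06, 1.07 and 1.04 at E16.5. Neuronal RNAs thus went from below the library median to just above it. The lowest 5% held 20 of them at E11.5, 16 at E14.5 but 0 at the last stage.

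Neurod6, a transcription factor of excitatory cortical neurons (chr6:55677822-55681263), was at 0.727, 0.682 and 0.758 at E11.5, 0.883, 0.848 and 0.888 at E14.5, and 1.13, 1.21 and 1.12 at E16.5. The 3 stages did not overlap, and E16.5 lay 0.68 ± 0.06 above E11.5 (adjusted p = 0.00013). Dcx, the microtubule protein of migrating neurons, was at 0.820 to 0.884 at E11.5, 0.837 to 0.911 at E14.5 and 1.04 to 1.07 at E16.5. Map2, a dendritic microtubule protein, was at 0.919 to 0.965, 0.895 to 0.976 and 1.20 to 1.23, and Tubb3, the neuronal beta-tubulin, at 0.805 to 0.837, 0.822 to 0.855 and 1.02 to 1.03. Tbr1, a factor of deep layer neurons, rose earlier: 0.631, 0.663 and 0.757 at E11.5 gave way to 0.949, 0.914 and 0.977 at E14.5 and to 1.03, 1.04 and 1.02 at E16.5, a rise of 0.59 from the first stage to the last (adjusted p = 0.00055), while the change from E14.5 to E16.5 was 0.12 (adjusted p = 0.27).

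Structural and synaptic genes of neurons rose too. Of 35 measured genes of the neuronal cytoskeleton and growth cone, 23 rose and 0 fell from E11.5 to E16.5, and of 29 synaptic genes 18 rose and 0 fell by limma, beside 8.17% rises and 12.5% falls over all genes. At an unadjusted p under 0.05 the falls numbered 0 and 2, as they did by edgeR. From E14.5 to E16.5, 14 synaptic genes rose and 1 fell, beside 7.91% and 13.6%. The medians of both lists went from 0.883 to 1.07 and from 0.850 to 1.12. Slc17a7, the vesicular glutamate transporter (chr7:45163949-45176142), was at 0.673, 0.816 and 0.837, then 0.798, 0.855 and 0.791, then 1.30, 1.35 and 1.27, a rise of 0.76 ± 0.08 against E11.5 (adjusted p = 0.00039). Stmn2 (stathmin 2, of growing axons) rose by 0.66 from 0.682, 0.708 and 0.832 to 1.18, 1.18 and 1.14. Cplx2 (complexin 2), one of the synaptic genes with the highest level, was at 0.899 to 0.953 at E11.5 and at 0.802 to 0.835 at E16.5, with a log2 difference of -0.16 (adjusted p = 0.058).

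**Figure D4:**
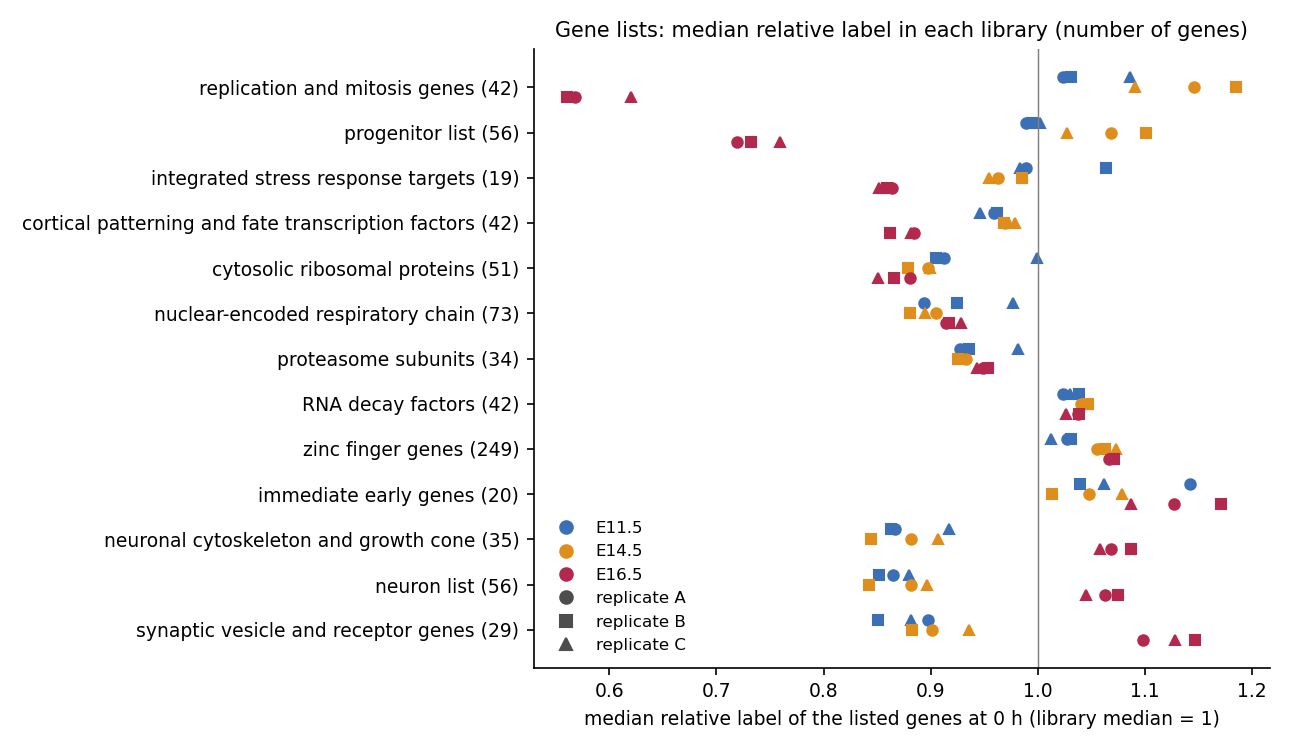
Median relative label of each gene list in each library at 0 h (library median = 1), coloured by stage and shaped by replicate, with the number of measured genes in brackets. The replication and mitosis genes lie at 0.561 to 0.620 at E16.5 and at 1.02 to 1.19 before, while the neuron, cytoskeleton and synaptic lists lie above 1 at E16.5 only.

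Some genes crossed from one end of the ranking to the other. 48 genes were in the highest 5% at E14.5 and the lowest 5% at E16.5, and 6 the reverse. Of the 48, 7 were on the replication and mitosis list, which holds 42 of the 10021 genes. 40 genes were in the lowest 5% at E11.5 and the highest 5% at E16.5, and 22 the reverse. Of the 40, 7 were on the neuron, cytoskeleton or synaptic lists (56, 35 and 29 measured genes, some on more than 1 list). Classes of 501 among 10021 genes share some members even where ranks are unrelated. Whether these counts go beyond that was not tested. The crossing genes named here were chosen after their values were seen, except where they are among the largest changes. Ncaph, a condensin subunit (chr2:127103809-127133954), was at 1.64, 1.48 and 1.44 at E14.5 and at 0.633, 0.506 and 0.663 at E16.5, and Cep55, a protein of the last step of cell division (chr19:38055011-38074423), at 1.47, 1.38 and 1.34 and then 0.419, 0.554 and 0.616. These changes of -1.35 ± 0.11 and -1.42 ± 0.13 (adjusted p = 7.77e-05 and 0.00010) were among the 5 largest falls, with Mlc1 (-1.43), an astroglial membrane protein, Gmnn (-1.38), the replication licensing inhibitor geminin, and the helicase gene Pif1 (-1.32).

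In the opposite direction, Runx1t1, a transcriptional corepressor (chr4:13743436-13893649), was at 0.679, 0.634 and 0.749 at E11.5, 1.18, 1.09 and 1.20 at E14.5, and 1.36, 1.53 and 1.43 at E16.5. It moved from percentile 1.43 to percentile 99.3 of all genes, and the rise of 1.07 ± 0.08 from first to last stage passed the test (adjusted p = 6e-05). Lrfn5, a synaptic adhesion protein (chr12:61523150-61858342), went from 0.753, 0.824 and 0.739 through 1.14, 1.17 and 1.21 to 1.38, 1.46 and 1.46. Cbln2, a synaptic organizer, was at 0.758, 0.761 and 0.684, then 0.634, 0.693 and 0.607, then 1.23, 1.16 and 1.23, the largest rise from E14.5 to E16.5 among genes that met the naming rule (0.91 ± 0.07, adjusted p = 4.89e-05). Elmod1 had the largest rise from E11.5 to E16.5 by that rule (1.33 ± 0.31, adjusted p = 0.016), but at 6.97 cpm at E11.5 its values there spread from 0.257 to 0.732. Dynlrb1, a light chain of the motor dynein (chr2:155236533-155250277), stood at 0.996, 0.989 and 0.996, then 0.890, 0.940 and 1.00, then 1.54, 1.69 and 1.69. At E16.5, 54.8% of its 2 h rate was left after 12 h of chase, against 12.0% for Slc17a7, 10.1% for Lrfn5 and 15.6% for the median gene.

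From E11.5 to E14.5 the few changes were mostly of single genes. Ndufs4, a subunit of respiratory complex I (chr13:114287795-114388258), was at 1.02, 1.04 and 1.07 at E11.5, 1.85, 1.66 and 1.90 at E14.5, and 1.01, 1.11 and 1.18 at E16.5. It was high at the middle stage alone, with a rise of 0.79 ± 0.08 (adjusted p = 0.0096) and a fall of 0.71 ± 0.08 from there to E16.5 (adjusted p = 0.00028), and the rise was 0.77 in the libraries at 2 h (adjusted p = 0.021). Trim36, a ubiquitin ligase, rose by 0.86 ± 0.11 (adjusted p = 0.027) and the cadherin Cdh7 by 0.76 ± 0.11 (adjusted p = 0.029). Nxph4, a neurexophilin, rose by 0.72 from 0.689, 0.670 and 0.741 to 1.08, 1.14 and 1.26. Among the 9 falls, Tenm2, a synaptic adhesion protein, went from 1.41, 1.34 and 1.49 to 0.967, 0.957 and 1.07 (-0.50 ± 0.07, adjusted p = 0.027) while its expression rose by 3.76 (adjusted p = 2.24e-10). Among the genes named here, the calls of Trim36, Cdh7 and Tenm2 were lost in 9, 8 and 7 alternative settings, while those of Ndufs4 and Runx1t1 were kept in all that were run.

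Transcription factors of cortical patterning and fate were split: of 42 measured, 9 rose and 19 fell from E11.5 to E16.5, beside 8.17% and 12.5% over all genes. Their median relative label was 0.954, 0.973 and 0.864 at the 3 stages. Targets of the integrated stress response, some of them for amino acid synthesis and transport, fell in 10 of 19 from E11.5 to E16.5 with 0 rises by limma (0 at an unadjusted p under 0.05 and by edgeR), and fell in 10 and rose in 1 from E14.5 to E16.5. Psat1, an enzyme of serine synthesis (chr19:15904678-15947337), was at 1.01, 0.972 and 1.09, then 0.963, 0.956 and 0.969, then 0.679, 0.668 and 0.669 (-0.60 ± 0.05 against E11.5, adjusted p = 0.00014), and its expression fell by 1.31. Slc7a11, the cystine transporter, fell by 1.19, from 1.63, 1.56 and 1.27 to 0.723, 0.594 and 0.632, although its expression was higher by 0.73, under 2-fold, at E16.5. Of 19 p53 targets, 4 rose and 3 fell from E11.5 to E16.5, beside the same 8.17% and 12.5%.

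Housekeeping groups were read against the 8.17% of all genes that rose and the 12.5% that fell from E11.5 to E16.5. Cytosolic ribosomal proteins had median relative labels of 0.939, 0.907 and 0.878, with 2 of 51 rising and 6 falling, a share of falls near that of all genes. At 12 h, 46.5%, 46.4% and 26.3% of their 2 h rate was left, against 25.3%, 25% and 15.6% for all genes. Of the 51, 17 were in the low-label class and 5 in the high-label class. Rpl8 was at 0.803 to 0.917, 0.761 to 0.801 and 0.744 to 0.762 at the 3 stages. Many ribosomal protein genes have processed copies, so these values are uncertain. Nuclear-encoded subunits of the respiratory chain were at 0.931, 0.886 and 0.926, with 3 of 73 falling and 0 rising by limma (1 at an unadjusted p under 0.05, 0 by edgeR). Proteasome subunits were at 0.952, 0.929 and 0.949, with 0 of 34 called by limma from E11.5 to E16.5, 1 positive and 2 negative at an unadjusted p under 0.05, and 3 falls by edgeR. The signs of the small median changes of the respiratory and proteasome lists depended on the divisor or scale used.

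Zinc finger genes, taken by symbols that begin with Zfp, Zscan or Zkscan, were a little above the median at each stage (1.02, 1.07 and 1.08). 30 of the 249 were in the high-label class and 1 in the low-label class, and 21 rose and 15 fell from E11.5 to E16.5, beside 8.17% and 12.5% over all genes, which are also the shares to set beside the next groups. Immediate early genes, whose RNAs are known for fast decay, stood at 1.05, 1.06 and 1.13 in 20 measured members, with 1 rise (Homer1, by 0.25) and 2 falls (Btg2, by 0.38, and Ccn1, by 0.88). At 12 h, 42.8%, 41.4% and 29.3% of their 2 h rate was left, against 25.3%, 25% and 15.6% for all genes. These shares were near those of the ribosomal protein genes, so the share left was not read as a rate of decay. Klf6 was at 1.10 to 1.19 at E11.5 and 1.26 to 1.34 at E16.5, and Dusp4 scattered from 0.915 to 1.56 over the 9 libraries. RNA decay factors, including the CCR4-NOT subunits, were at 1.03 at each stage with 3 rises and 2 falls among 42, rises being near the share over all genes. Of 9 measured long noncoding RNAs, 1 rose and 2 fell, among them Pantr1, which went from 1.05, 1.00 and 1.12 at E11.5 to 0.779, 0.796 and 0.893 at E16.5 (-0.36 ± 0.07, adjusted p = 0.0061). Of 63 replication-dependent histone genes, 2 passed the filter.

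Label content was then set beside the change in expression in the same libraries. Expression was tested over 18408 genes on covered-T counts (edgeR, adjusted p under 0.05 and fold over 2). From E11.5 to E16.5, 14.7% of these genes rose and 14.6% fell, from E14.5 to E16.5 7.19% and 5.92%, and from E11.5 to E14.5 8.14% and 8%. At E16.5 the changes in label and expression went together. Of 1071 genes with a relative label whose expression rose from E11.5 to E16.5, 455 also rose in label (42.5%) and 29 fell (2.71%), beside 8.17% and 12.5% over all genes. Of 1040 whose expression fell, 7 rose in label and 662 fell (63.7%). The median label change was 0.25 in the first group, -0.43 in the second and -0.01 in the 7910 genes without an expression call, of which 357 rose and 561 fell. Over all 10021 genes the label change and the expression change had a Pearson correlation of 0.639 and a Spearman correlation of 0.636, which describe these libraries, since both changes are computed from the same covered Ts and genes are not independent.

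From E14.5 to E16.5, 325 of 414 genes with falling expression fell in label (78.5%) and 5 rose, and 83 of 289 with rising expression rose in label (28.7%) and 10 fell. Genes with falling expression had a median label percentile of 75.3 at E14.5 and of 6.59 at E16.5, so that they moved from the upper part of the ranking to near its bottom. From E11.5 to E14.5 few genes were called in label. Of 505 genes with rising expression 6 rose in label (1.19%, beside 0.259% of all genes) and 2 fell (30 and 15 by edgeR), of 332 with falling expression 2 rose and 0 fell (13 at an unadjusted p under 0.05 by limma, 3 by edgeR), and the median label changes were 0.03 and 0.07. Expression did change between these stages, with a median of 0.90 on the log2 scale over the neuron list. The Pearson correlation across genes was -0.0269 for E11.5 and E14.5 (Spearman -0.0893), and 0.542 for E14.5 and E16.5 (Spearman 0.541).

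Genes whose expression and label rose together from E11.5 to E16.5 included Mef2c, a transcription factor of cortical neurons (chr13:83504034-83667080), with a relative label of 0.990, 0.830 and 0.981, then 1.46, 1.33 and 1.50, then 1.40, 1.47 and 1.54. Its expression rose by 4.74 (adjusted p = 1.61e-11), from 17.4 to 431 cpm, and its label by 0.66. Stmn4, a neuronal stathmin, rose by 3.78 in expression and by 0.85 in label. Among genes in which both fell, Aldoc, a glycolytic aldolase of glia (chr11:78322968-78327781), went from 1127 to 583 and 103 cpm and from 0.911, 0.925 and 1.01 through 0.928, 0.914 and 0.844 to 0.465, 0.430 and 0.431 in relative label (-1.10 ± 0.07 against E11.5, adjusted p = 3.79e-05). Dgkk, a diacylglycerol kinase, fell by 3.95 in expression and by 0.90 in label. Ptpru, a receptor tyrosine phosphatase, fell by 4.48 in expression but only by 0.30 in label (adjusted p = 0.046).

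Some genes broke the pattern. Unc5d, a netrin receptor of migrating neurons, rose by 2.83 in expression from E11.5 to E16.5 while its label fell by 0.53 ± 0.13 (adjusted p = 0.018), from 0.934, 1.29 and 1.21 to 0.724, 0.799 and 0.836. Dlx2, a transcription factor of interneurons and their progenitors (chr2:71543408-71546754), was at 1.61, 1.76 and 1.25 at E11.5, 1.29, 0.944 and 1.41 at E14.5, and 0.742, 0.683 and 0.645 at E16.5. From E14.5 to E16.5 its expression rose by 2.66 (adjusted p = 1.73e-07) as its label fell by 0.80 (adjusted p = 0.0085). The summed level of 10 interneuron markers went from 163 to 190 cpm at E14.5 to 575 to 610 cpm at E16.5, and their pooled relative label from 0.979 ± 0.0369 to 0.866 ± 0.0253 (SD, n = 3). Of 23 genes of cholesterol synthesis and uptake, 14 fell in expression from E11.5 to E16.5, and 2 fell and 0 rose in label by limma (1 rise at an unadjusted p under 0.05, 1 by edgeR), beside 12.5% falls and 8.17% rises over all genes. In label, 2 rose and 1 fell by limma from E14.5 to E16.5, while edgeR called 8 rises. The median relative labels of the list were 1.02, 0.971 and 1.04. Mvd, an enzyme of that pathway, fell by 1.32 in expression from E14.5 to E16.5 while its label rose by 0.22 (adjusted p = 0.023).

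**Figure D5:**
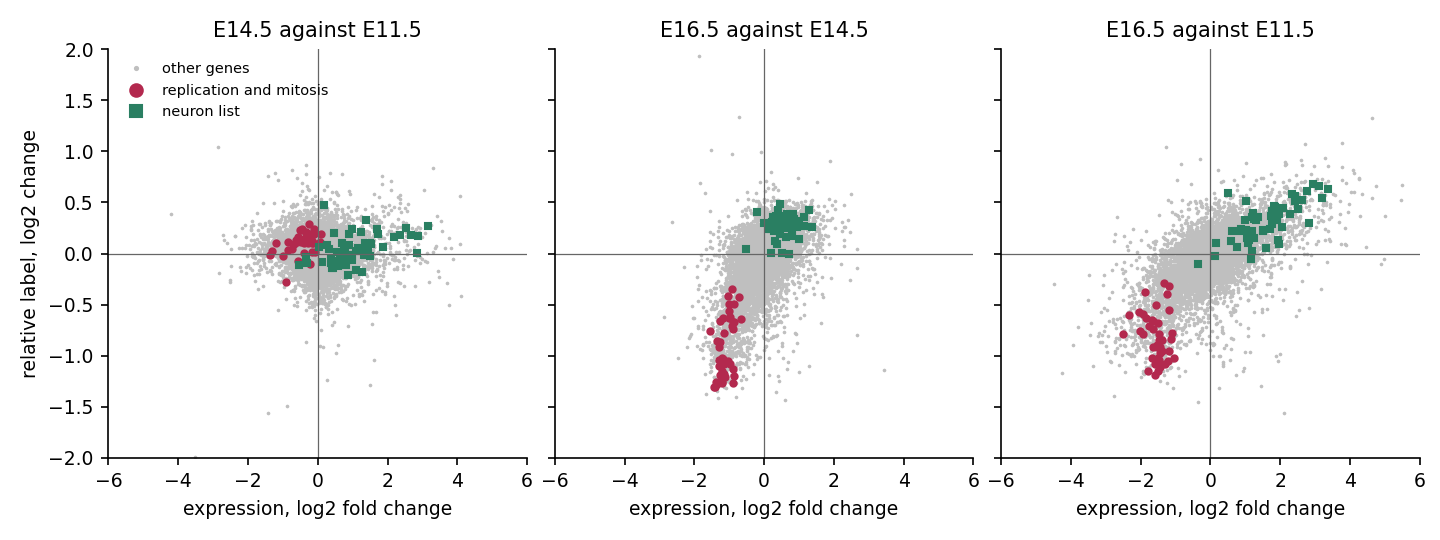
Log2 change of relative label (vertical) against log2 fold change of expression (horizontal) for the 10021 genes in each pair of stages, with replication and mitosis genes in red and the neuron list in green. Points follow a rising line in both panels with E16.5 (Pearson r = 0.542 and 0.639) and none in the panel of E14.5 against E11.5 (r = -0.0269), and 3 genes lie outside the axes in the panel of E16.5 against E11.5.

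Libraries taken 2 h into the chase come from other wells of the same pools, so they repeat the measurement but not the animals. Of 819 genes whose label rose from E11.5 to E16.5 at 0 h, 725 had the same sign at 2 h and 471 passed the same test in the same direction, with 8 called in the opposite one. Of 1246 tested falls, 1191 kept the sign, 843 were called and 1 was called in the opposite direction. Over all 9974 genes tested at both times, 7014 had the same sign, and 1358 and 1649 of all 10470 genes tested at 2 h were called in the 2 directions. For E14.5 against E16.5, 735 of 792 rises and 1320 of 1351 falls kept their sign, beside 7342 of the 9974 genes. For E11.5 against E14.5, 25 of 26 and 9 of 9 did, beside 6089 of the 9974. Only 5 and 1 of these were called at 2 h, beside 28 and 14 of the 10470 genes in the 2 directions. The median 2 h change of the replication and mitosis genes from E11.5 to E16.5 was -0.76, and that of the neuron list 0.36. Runx1t1 was an exception among the largest changes, with 1.07 at 0 h and 0.36 at 2 h (adjusted p = 0.16).

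Markers of cells other than cortical progenitors and neurons were measured beside these changes. The 12 markers of cortical cells summed to 3650 to 6447 cpm in the 9 libraries. Endothelial markers summed to 127 to 156 cpm at E11.5 and E14.5 and to 81.1 to 95.8 cpm at E16.5, and their pooled relative label was 1.05 ± 0.0334, 1.15 ± 0.0261 and 0.679 ± 0.0486 (SD, n = 3). Markers of meningeal fibroblasts and mural cells summed to 500 to 748, 25.9 to 28.4 and 41.5 to 72.5 cpm, with pooled labels of 1.05 ± 0.0723, 1.08 ± 0.0827 and 0.885 ± 0.0643. Microglial markers, at 17.6 to 31.1 cpm in all libraries, had pooled labels of 1.93 ± 0.320, 2.06 ± 0.124 and 0.988 ± 0.0662. The E16.5 libraries of all 3 lists had the lowest pooled label. The part of these cells in the changes at E16.5 was not tested.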

How the data were processed

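Members, gene lists and classes were chosen with earlier results of these data known. The authors aligned reads to mm10 and counted covered and converted Ts over exons of GENCODE M24 with SlamDunk v0.4.3, and deposited, for each gene and library, a conversion rate as a fraction, the count of covered Ts, and cpm. Their half-lives and fits were not used. Converted Ts were recovered as rate times coverage. Relative label was log2((converted Ts + 0.5)/(covered Ts + 1)) minus the log2 median gene rate of the library. It was fitted in limma 3.58.1 (lmFit, eBayes with trend, 9 libraries, R 4.3.3) with calls at an adjusted p (Benjamini-Hochberg) under 0.05. Expression was fitted to the deposited counts of covered Ts in edgeR 4.0.16 (quasi-likelihood, TMM, over 10 in all libraries). Covered Ts are several per read, so counting intervals would be too narrow, and cpm values were whole reads in 100% of cases (tolerance of 0.01). The limma, rank and edgeR fits were tested on simulated counts, for E16.5 against E11.5 alone, and the other steps were not. Alternatives were other coverage minimums, ranks, background subtraction, the summed rate as divisor, an edgeR offset model, DESeq2 1.42.0, recovered reads, a replicate block and each library left out. Named genes were the 10 lowest and 10 highest, the 5 largest rises and falls per pair of stages, the 2 largest of each combination of expression and label, and up to 3 per list by cpm. Genes with overlapping exons were left out except in lists. Annotation came by symbol from GENCODE M21 (51579 of 53491 symbols). Library strandedness in counting and multi-mapping rules are not given in the sources used here. Some genes that the naming rule chose are not reported here.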

Additional observations from a re-analysis of the deposited data

How the results depend on the processing

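For E14.5 against E11.5, the 26 rises and 9 falls became 17 and 4 with over 500 covered Ts, 99 and 87 with edgeR on converted Ts, and 17 and 2 beyond a log2 change of 0.5. The falls were 16 with over 10000 covered Ts and 4 with the summed rate as divisor. Leaving out single libraries gave 5 to 25 rises and 0 to 13 falls (25 and 13 without E11.5 replicate C, and fewer without each of the others). For E16.5 against E14.5, rises were 481 with the summed rate as divisor, 1484 with edgeR and 35 beyond 0.5, and falls 820 with over 10000 covered Ts and 704 beyond 0.5. For E16.5 against E11.5, rises beyond 0.5 were 146, and falls 784 with over 10000 covered Ts and 595 beyond 0.5. With single libraries left out, rises ranged over 349 to 888 and falls over 1028 to 1417 (E16.5 against E14.5), and over 466 to 817 and 908 to 1233 (E16.5 against E11.5).

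With the replicate letter as a replicate block, E14.5 against E11.5 gave 14 rises and 0 falls, and the E16.5 comparisons 619 and 1249 against E14.5 and 688 and 1127 against E11.5. Deviations of same-letter libraries of different stages correlated at -0.037 to 0.0042 and those of other pairs at -0.0133 to 0.0254. This cannot show whether letters paired stages, because the spread between replicates was close to counting error, which would hide a shared deviation. The median gene rate of E14.5 minus E11.5 ranged over -0.1501 to 0.06397 points and changed sign (0.06397) without E11.5 replicate C. Expression falls from E11.5 to E14.5 were 964 on recovered whole reads in place of 1473. On ranks, the 2 h calls for E14.5 against E11.5 went from 6 to 11 and the joint calls of label and expression from 6 to 11, and the joint calls for E16.5 against E11.5 went from 1117 to 558 beyond 0.5. The share of the 2 h rate left in the high-label class, 34.1% over stages, was 29.94% with over 10000 covered Ts and 38.2% in the highest 2%. The causes of these shifts were not tested. For the genes with the largest changes between stages, 368 values under alternatives kept their side of the threshold and 86 lost their call, of Actr10, Cdh7, Crtc1, Garnl3, Mtfmt, Tenm2, Tprn and Trim36 between the first stages and of Rasl10b, and 0 changed sign. Other named genes were not followed through all alternatives, and Hba-a1, Hbb-bt and Gm42418 were not called on ranks. Medians of gene lists, computed under the same alternatives in a step added after seeing the data, moved by less than 1 SD in 206 cases and by more in 34. Depth limits genes near 2000 covered Ts, where few converted Ts are expected, and the 3 pools per stage limit every test.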
